A study of Mus musculus with 20 samples.

Results

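Broad open domains shared by all conditions were stretches of accessible chromatin found by ATAC-seq in the intestinal and gastric mesenchyme of mouse embryos. The 4 lists of broad peaks, one each for the control intestine, control stomach, *Eed* KO intestine and *Eed* KO stomach, were merged wherever peaks shared at least 1 bp. A merged region was kept when it was at least 3000 bp wide and held a peak from every list. Of 162113 merged regions, 74635 held a peak from all 4 lists, and 2196 of these, or 2.94%, were broad domains. Domains were thus chosen by measured peak width and by presence in each list. For that reason their ATAC-seq values are given as a description without a test. The RNA of the genes that start in them took no part in the choice.

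Cells came from embryos at E13.5, labelled C57BL/6, and were sorted for GFP. The study's reporting summary names mixed strain backgrounds for the *Eed* fl and *Rosa26*mTmG lines, so strain background carried with the *Eed* fl allele cannot be told apart from the genotype. Controls were *Bapx1*-cre;*Rosa26*mTmG, and *Eed* KO embryos were *Eed* fl/fl;*Bapx1*-cre;*Rosa26*mTmG, so both carried the Cre and the reporter, and *Eed* was deleted only in cells with a history of *Bapx1* (also called *Nkx3-2*) expression. RNA-seq gave 2 libraries for each organ and genotype, and 2 ATAC-seq libraries per condition were pooled by the authors into 1 list. Adult RNA-seq had 2 control and 2 *Eed* KO libraries of GFP+ intestinal stroma, which by the study's methods came from mice of about 10 weeks given tamoxifen to activate *Pdgfrb*-CreERT2. Whether replicate libraries came from separate litters is not given in the labels, so p-values measure the spread between libraries.

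Open chromatin is read by ATAC-seq because the transposase inserts where nucleosomes are sparse. Most open regions are short enhancers or promoters, while wide open stretches often lie over CpG islands, GC-rich DNA in which CpG dinucleotides are kept because it is rarely methylated. Many genes for developmental transcription factors carry long CpG islands, and these are the classic targets of Polycomb repressive complex 2 (PRC2). *Eed* encodes a core subunit that PRC2 needs to place H3K27me3, a mark of silent genes. No H3K27me3 was measured in the data described here.

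Example sequences come from domains with a gene start, and 1446 of the 2196 domains have none. The 250 bases upstream of the RefSeq start (GRCm38.p6, strand of the gene) are printed for *Tnrc18*, whose domain has the most CpG-dense bases among the 8 widest, for the stomach regulator *Barx1*, for *Hoxa13* and *Pax6*, which were silent or nearly so in control stomach and high in the KO, and for *Cfl1*, an abundant gene whose RNA passed no embryonic test. CpG dinucleotides are in capitals.
Tnrc18, chr5:142817663-142817912, minus strand: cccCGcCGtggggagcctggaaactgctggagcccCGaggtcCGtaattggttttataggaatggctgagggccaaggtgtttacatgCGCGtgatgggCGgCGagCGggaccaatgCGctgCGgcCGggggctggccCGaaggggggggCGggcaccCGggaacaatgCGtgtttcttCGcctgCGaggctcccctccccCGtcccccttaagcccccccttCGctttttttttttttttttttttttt
Barx1, chr13:48662786-48663035, plus strand: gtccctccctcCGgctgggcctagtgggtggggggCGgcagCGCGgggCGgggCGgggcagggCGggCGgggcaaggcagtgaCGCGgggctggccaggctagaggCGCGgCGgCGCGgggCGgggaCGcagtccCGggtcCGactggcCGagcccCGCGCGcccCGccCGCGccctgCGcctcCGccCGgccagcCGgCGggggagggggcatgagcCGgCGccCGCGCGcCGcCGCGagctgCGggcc
Hoxa13, chr6:52260881-52261130, minus strand: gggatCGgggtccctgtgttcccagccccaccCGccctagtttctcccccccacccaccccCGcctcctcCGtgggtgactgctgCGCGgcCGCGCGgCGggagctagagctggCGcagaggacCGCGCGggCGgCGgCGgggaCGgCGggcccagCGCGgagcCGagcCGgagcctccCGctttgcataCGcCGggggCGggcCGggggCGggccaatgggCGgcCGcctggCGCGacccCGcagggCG
Pax6, chr2:105668646-105668895, plus strand: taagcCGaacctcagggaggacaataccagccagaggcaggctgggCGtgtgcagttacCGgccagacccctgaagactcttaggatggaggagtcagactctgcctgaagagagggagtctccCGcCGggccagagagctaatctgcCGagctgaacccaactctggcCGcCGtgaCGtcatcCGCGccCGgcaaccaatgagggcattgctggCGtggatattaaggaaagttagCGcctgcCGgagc
Cfl1, chr19:5490205-5490454, plus strand: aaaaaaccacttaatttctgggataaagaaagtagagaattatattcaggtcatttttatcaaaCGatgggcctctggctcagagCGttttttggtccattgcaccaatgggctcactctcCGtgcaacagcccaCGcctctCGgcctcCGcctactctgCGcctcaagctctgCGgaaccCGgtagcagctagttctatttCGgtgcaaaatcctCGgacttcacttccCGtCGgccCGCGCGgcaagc

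CpG dinucleotides numbered 40 in the *Barx1* stretch, 35 in *Hoxa13*, 20 in *Tnrc18*, 16 in *Cfl1* and 15 in *Pax6*. GC content ran from 85.6% in *Barx1* and 80.0% in *Hoxa13* to 61.6% in *Tnrc18*, 60.8% in *Pax6* and 52.0% in *Cfl1*. The GC box, the letters GGGCGG on either strand that SP factors bind, was counted without overlapping occurrences. It was found 6 times in *Barx1*, 5 times in *Hoxa13*, 2 times in *Tnrc18* and 0 times in the other sequences. Density of CpG therefore differed widely between these stretches, whose genes start in domains that passed the same rule.

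Domains had a median width of 3437 bp, with quartiles at 3177 and 3863 bp and a maximum of 8795 bp. The lists often agreed on only part of a domain. The common core, the bases covered by a peak in every list, had a median of 1401 bp and a range of 0 to 6667 bp, and its median share of the width was 39.2%. In 53 domains no base was covered in all 4 lists, and in 242 domains (11.0%) the core itself reached 3000 bp. A single peak of at least 3000 bp was present in at least 1 list for 1629 domains, whereas the other 567 reached the limit only by joining peaks of different lists. At the limit, the domains just inside were those at *Ywhaz* (3000 bp, core 2801 bp), at *Zfp362* (3000 bp, core 1366 bp) and at chr15:94247427-94250427 (3001 bp, core 434 bp). The regions just outside, chr7:96494149-96497147, chr4:47284629-47287626 and chr4:99106696-99109693, were 2999, 2998 and 2998 bp wide with cores of 225, 1802 and 626 bp.

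**Figure D1:**
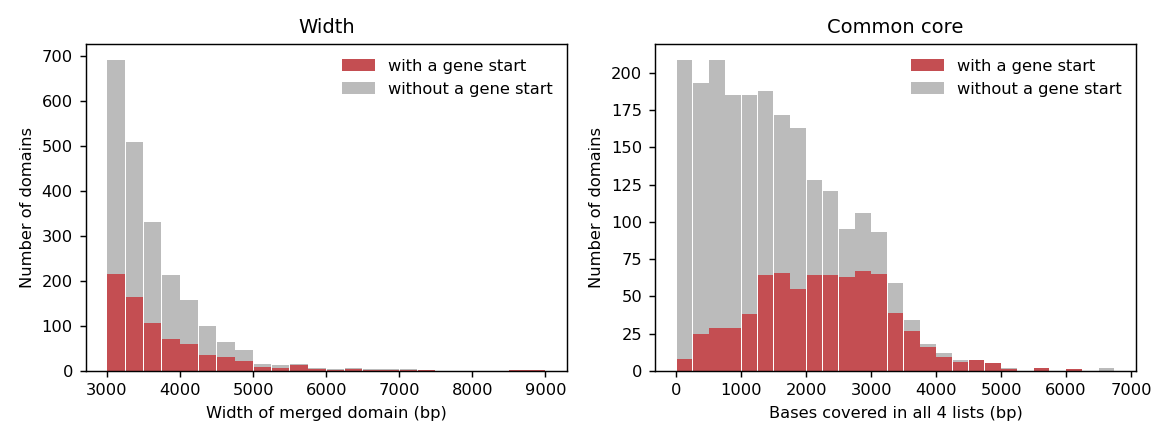
Numbers of domains by merged width (left) and by bases covered in all 4 lists (right), in bins of 250 bp, with domains that hold a gene start in red and the others in grey stacked on top. Widths fall off steeply from 3000 bp, and domains with a gene start have the larger cores, with a median of 2233.5 bp against 1030.5 bp.

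Gene starts fell in 750 domains (34.2%), against 18.1% of the narrower regions found in all 4 lists. Median width was 3437 bp for domains and 1008 bp for narrower regions. A wide region holds a start more readily, so neither these shares nor those by width below are read as an enrichment. The share was 31.6% in the 1203 domains under 3500 bp, 32.6% in 546 from 3500 to under 4000 bp, 40.4% in 369 from 4000 to under 5000 bp and 55.1% in the 78 of 5000 bp or more. Of the 1446 domains without a start in the counted gene models, 945 lay over a gene, 501 lay between genes, and 156 held the start of another transcript of a gene. These start-less domains were a median of 46804.5 bp from the nearest start of a protein-coding gene. Domains were most numerous on chromosome 2, with 185, and 36 lay on chromosome X.

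Domains with a start were rich in CpG and those without were not. Median GC content was 57.0% with a start and 47.9% without, and the median ratio of observed to expected CpG was 0.607 and 0.254. CpG-dense bases, counted in windows of 200 bases with at least 50% GC and a ratio of at least 0.6, came to a median of 2088 with a start and 201 without. At least 1000 such bases were found in 611 domains with a start (81.5%) and in 191 without (13.2%), and over all domains in 802 (36.5%), against 8.49% of narrower regions. Among narrower regions with a start the share was 38.7%. These were a median of 1290 bp wide, against 3488.5 bp for domains with a start, and a wide region reaches a fixed number of bases more readily, so the shares are not read as a difference in density. Median GC content (59.1%) and CpG ratio (0.678) were higher in the narrower regions with a start.

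Promoter letters of the domain genes were searched for 12 motifs, and the shares stand here as a description. In the RefSeq table of 300-base promoters (250 before and 50 after the start), 749 promoters matched 564 of the 939 domain genes. The match was by gene symbol, so promoters of these genes that lie outside a domain could be counted too. The GC box occurred in 442 of the 749 promoters (59.0%), in 61.8% of promoters of genes in narrower 4-list regions and in 35.9% of all 32544 promoters. TATAAA, the TATA box, occurred in 9.75%, 7.01% and 13.6% of the same sets. TAATTA, a homeobox core, occurred in 3.87%, 2.55% and 5.29%. The letters AGATAA, which zinc-finger factors such as *Gata4* bind, were in 8.68%, 6.04% and 11.2%. CCGGAAGT, which ETS factors bind, was found in 1.34%, 7.32% and 3.92%. The letters ATGGCGGC of YY1 were in 1.74%, 4.31% and 2.26%, TGACGTCA of CRE in 1.34%, 3.06% and 1.80%, and the NRF1 motif in 0.935%, 1.95% and 0.974%. The remaining 4 were the CCAAT box (31.9%, 37.1% and 37.4%), the AP-1 letters TGANTCA (5.47%, 4.78% and 7.79%), the E-box CACGTG (7.61%, 9.70% and 7.17%) and the forkhead letters TGTTTAC (4.01%, 2.51% and 3.66%). Both strands were searched and none of these strings contains another.

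MACS2 fold enrichment, the mean signal of a peak over its local background, was modest in the domains. Its median over lists and domains was 3.46, against 4.44 in the narrower 4-list regions. Whether the flanks that a wide peak takes into its mean account for the lower value was not tested. At a given domain the median ratio between the highest and lowest list was 1.20 (1.28 in narrower regions). Each value is a mean over the bases that the list called as peak, so bases left uncalled drop out. The rule also asked for a peak in every list, so the ratio does not measure how alike the lists were over a whole domain. The highest mean fold enrichment was 8.24 at chr18:34885778-34889155 and 7.87 at chr16:94630189-94633200 within *Dyrk1a*, followed by the domains at *Nme5* (7.79), *Mafa* (7.41) and *Sec23a* with *Gemin2* (7.05). The largest ratio between lists was 2.62, at chr4:150144498-150147582, where the value was 3.44 in control intestine, 2.97 in control stomach, 6.44 in KO intestine and 7.79 in KO stomach. Covered bases there were 250, 3052, 333 and 392 bp in the same order, so peaks of unlike width were compared. Ratios of 2.54 within *Ankrd6*, 2.33 at chr11:53778666-53782433, 2.19 within *Stam2* and 2.19 within *Cdhr3* came next, all in domains without a gene start.

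KO lists covered more of the domains than control lists. Median covered length was 2307.5 bp in control intestine and 2728 bp in KO intestine, and 2292 bp in control stomach and 2943.5 bp in KO stomach. The KO list covered more bases than the control list in 1381 intestinal domains (62.9%) and 1455 gastric domains (66.3%). In narrower 4-list regions the shares were 57.7% and 59.1%. The same direction held over each whole list, which covered 73.8 and 80.4 Mb in control intestine and stomach and 86.3 and 87.7 Mb in the KO. With 1 pooled list per condition these lengths have no replicate error. Peaks of at least 3000 bp numbered 603 and 609 in the control lists and 863 and 1026 in the KO lists, so the KO lists gave more of the width that the rule asked for. From the 2 control lists alone the same rule gave 1020 domains with 536 gene starts.

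The widest domain, chr14:63264414-63273208, spans 8795 bp around the start of *Gata4*, a zinc-finger regulator of the heart and foregut. Only 2377 bp were common to the 4 lists, and covered bases were 4771 in control intestine, 6661 in control stomach, 5763 in KO intestine and 6354 in KO stomach. *Tnrc18* (chr5:142815440-142823981, 8542 bp), the blood-cell repressor *Gfi1* with *A430072P03Rik* (chr5:107719481-107726978, 7498 bp) and *Prdm12* with *Gm13425* (chr2:31635374-31642510, 7137 bp) were other domains with a start among the 8 widest. At *Gfi1* the coverage was 2193 and 3331 bp in control intestine and stomach and 5822 and 7469 bp in the KO. At *Prdm12*, needed for pain-sensing neurons, it was 2547 and 2702 bp in controls and 4890 and 5364 bp in the KO. Among the 8, 3 had no start, at chr1:85315626-85324386 over *Gm2619*, chr13:116705605-116712658 and chr8:19701125-19708000. Their cover in control intestine and stomach was 6451 and 4491 bp, 2034 and 6949 bp, and 4176 and 4706 bp. In the KO it was 6283 and 2451 bp, 2584 and 5502 bp, and 2569 and 2254 bp, so not every wide domain had longer cover in the KO.

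Few of the widest domains were open end to end. A domain over *Gm7120* (chr13:119596440-119603165) had a core of 6515 bp, but 70.7% of its bases are masked as repeats. The domain at *Ntf3* (chr6:126161907-126168080, 6174 bp), which encodes neurotrophin 3, had a core of 6114 bp. A cluster of 14 domains lay between 85 and 86 Mb of chromosome 1, around the domain of the interferon-induced genes *Sp110* and *Sp140* (chr1:85598070-85601301), and 5 of the 25 widest domains were there. The widest of the cluster, over *Gm2619*, had 44.4% of its bases masked as repeats, against a median of 13.4% over all domains. Its highest -log10 q per list was only 2.26 to 3.38.

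**Figure D2:**
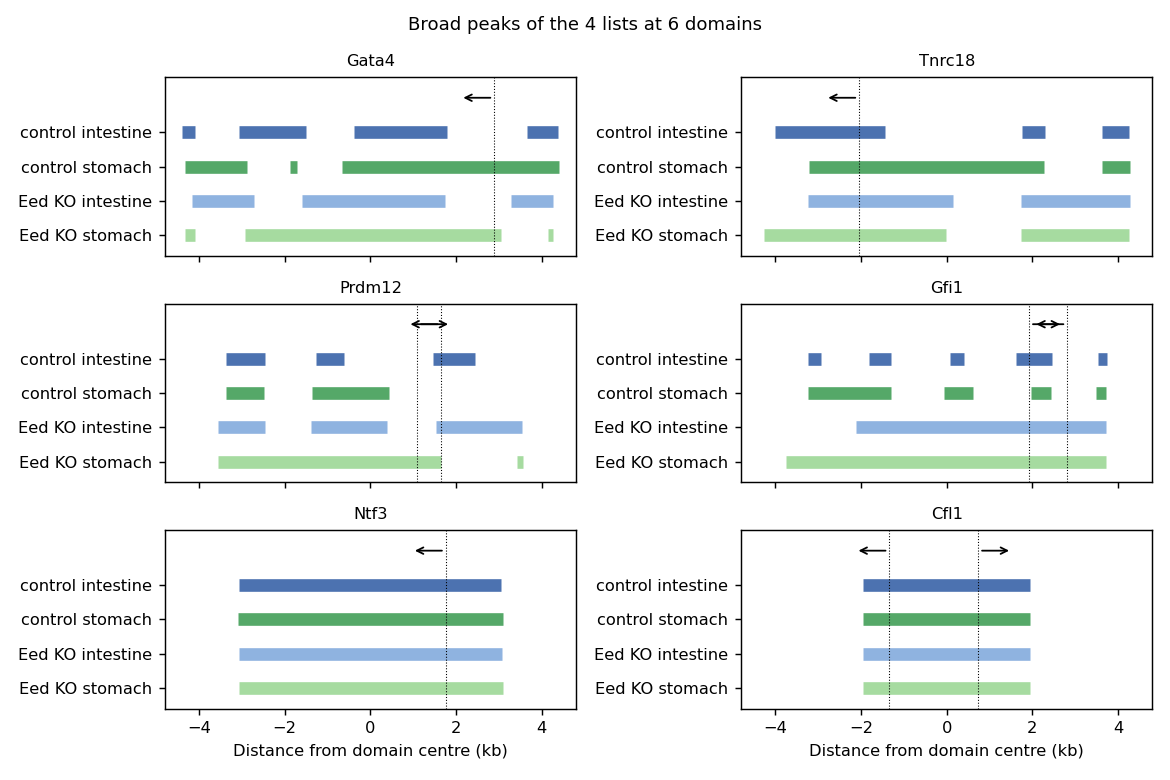
Broad peaks of the 4 lists (bars, from control intestine at the top to *Eed* KO stomach at the bottom) at 6 domains, by distance from the domain centre in kb; dotted lines mark gene starts and arrows the direction of transcription. Both control lists have separate peaks at *Gata4*, *Tnrc18*, *Prdm12* and *Gfi1*, while at *Ntf3* and *Cfl1* each list has 1 peak over almost the whole width.

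The counted gene table placed 43276 genes, and 939 of them (2.17%) start in a domain, including 678 of 21530 protein-coding genes (3.15%). Wide domains hold genes of every level, from silent to abundant. Median expression of the protein-coding domain genes was 16.4 to 24.5 CPM (counts scaled to an equal library total) over the 8 embryonic libraries, against 4.23 to 6.17 CPM for all protein-coding genes and 23.2 to 25.2 CPM for other protein-coding genes in 4-list regions. Per length, the domain genes had medians of 11.0 to 18.8 TPM. Genes at 100 CPM or more made up 19% to 22.3% of the protein-coding domain genes, 15.5% to 16.0% of the other open genes and 10.6% to 10.9% of all. At the other end, 23.2% to 26.4% were under 1 CPM in the control libraries and 15.8% to 20.1% in the KO libraries. For the other open genes these shares were 16.0% to 17.5% and 13.4% to 14.9%.

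Embryonic libraries held 30236159 to 39606157 counts on genes and adult libraries 11404712 to 15903642. A count of 0 allowed up to 0.0757 to 0.0992 CPM in embryonic libraries, counting error only. *Eed* itself was 38.1 and 40.1 CPM in control intestine, 40.1 and 41.5 in control stomach, 10.7 and 8.59 in KO intestine and 11.5 and 7.40 in KO stomach. It fell by 2.02 ± 0.21 (SE) on the log2 scale in the intestine (adjusted p = 0.00464, edgeR quasi-likelihood test) and by 2.11 ± 0.21 in the stomach (adjusted p = 0.00175). In adults it was 29.7 and 33.4 CPM in controls and 25.7 and 25 in the libraries labelled KO, a log2 difference of -0.32 ± 0.21 (adjusted p = 0.317). Gut mesenchyme markers summed to 15959 to 21658 CPM in embryonic controls and 14290 to 25474 CPM in KO libraries, with a median log2 change of -0.25 in the stomach. In bulk RNA, fewer cells of a type and less RNA per cell cannot be told apart.

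Control intestine was first compared with control stomach, to ask which domain genes differ between organs although their domain held a peak in both. The rule asks for a peak within the merged span, so it does not show that the gene start itself was open in both organs. A gene was called when its adjusted p was under 0.05 and its log2 fold change was over 1 in size. Of 708 domain genes tested, 33 (4.66%) had more RNA in the intestine and 63 (8.90%) had more in the stomach, where 1.68% and 3.39% of all 16218 genes tested were called. Among other genes in 4-list regions these shares were 1.38% and 3.13%. Genes higher in the stomach were led by *Barx1*, *Cbln2*, *Sim2*, *Nkx2-5* and *Prrx1*, and those higher in the intestine by posterior *Hox* genes. Without control intestine replicate 1 or 2, the 63 became 32 and 38, and the share of all genes called fell from 3.39% to 1.28% and 1.94%. Scaling to spike-in totals gave 14 and 15 domain genes, and 0.432% and 0.524% of all genes.

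*Barx1*, a homeobox regulator of stomach mesenchyme, lies in a domain of 4443 bp (chr13:48661553-48665995). It was 626.6 and 557.3 CPM in control stomach and 0.534 and 1.48 in control intestine, a log2 difference of -9.23 ± 0.41 (adjusted p = 5.94e-05). By the rule its domain held a peak in both organs, with 1821 bp covered in control stomach and 2131 bp in control intestine. Only 923 bp were common to the 4 lists. Covered bases measure the length of peaks and not their signal, so they do not rank the organs by openness. *Prrx1*, a mesenchymal homeobox gene, was 22.6 and 33.1 CPM in stomach and 0.899 and 1.51 in intestine (log2 difference -4.55 ± 0.28, adjusted p = 0.000264), over a domain that both control lists covered for at least 3486 bp. *Gata4* was 14.5 and 15.5 CPM in stomach and 1.01 and 1.38 in intestine (-3.66 ± 0.35, adjusted p = 0.00126).

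*Cbln2* (8.84 and 11.5 against 0.141 and 0.673 CPM), the homeobox gene *Nkx2-5* (32.1 and 6.40 against 0.478 and 1.18) and *Sim2* (3.01 and 2.50 against 0.0843 and 0.135) complete the 5 leading genes of the stomach that reached 1 CPM on average with *Barx1* and *Prrx1*. The groups did not overlap for any of them, although the stomach libraries of *Nkx2-5* differed widely. *Hand1*, a basic helix-loop-helix factor, went the other way, with 93.3 and 89.8 CPM in intestine and 1.94 and 0.28 in stomach (log2 difference 6.40, adjusted p = 0.00157). Its domain (chr11:57827266-57834110, 6845 bp) was covered for 3889 bp in control intestine and 2567 bp in control stomach.

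The leading genes of the intestine were *Hoxa11*, its antisense gene *Hoxa11os*, *Hoxa13*, *Hoxd11* and *Hoxd12*, which pattern the posterior body and limbs. None had a count in either control stomach library. *Hoxa11* was 13.3 and 12.9 CPM in control intestine, at least 315-fold higher than 3 counts over both stomach libraries would give (adjusted p = 0.000231). *Hoxa13* (5.51 and 8.21 CPM) was at least 162-fold higher and *Hoxd11* (10.7 and 7.34) at least 220-fold. *Hoxd12* (3.29 and 3.97) was at least 86.6-fold and *Hoxa11os* (4.21 and 4.11) at least 100-fold higher. By the rule the domains of all 5 held peaks in the stomach too, with 1446 bp covered in control stomach at *Hoxa11*. At *Hoxa13* the cover was 4086 bp in control stomach and 2666 bp in control intestine. These are lengths of peaks and do not rank the organs by signal. Overlapping genes of opposite strands share the *Hoxa11* domain, and whether strand was used in counting is not given in the sources used here.

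Open width can be set beside the organ difference for each gene. The control intestine list covered more of the domain than the control stomach list for 54.5% of genes higher in the intestine, 34.9% of genes higher in the stomach and 51.6% of tested domain genes that were not called.

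**Figure D3:**
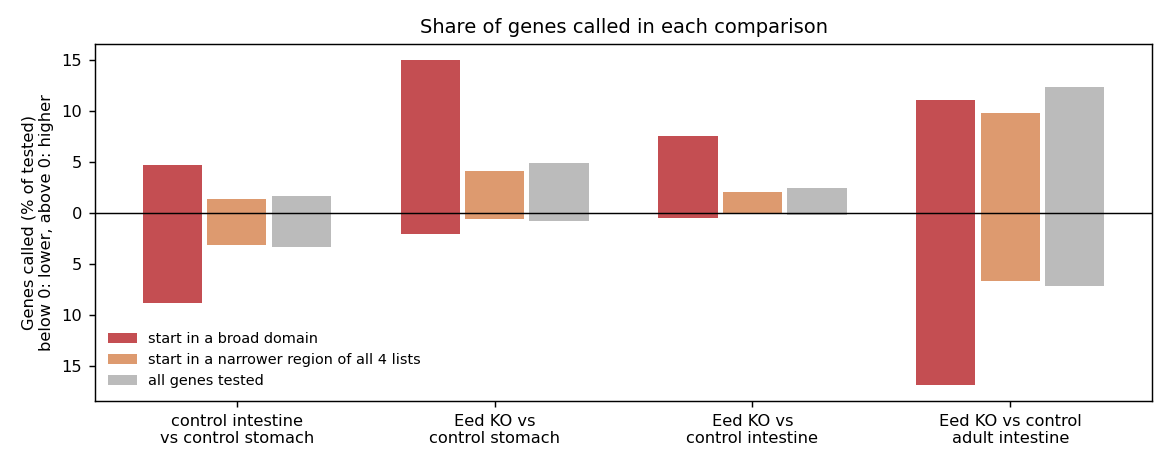
Share of tested genes called higher (bars above 0) and lower (bars below 0) in 4 comparisons, for genes that start in a broad domain (red), in a narrower region of all 4 lists (orange) and for all genes tested (grey). In the stomach KO, 15.0% of domain genes and 4.84% of all genes are higher; in the adult intestine the higher shares are 11.1% and 12.3%.

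The second comparison asked what loss of *Eed* did in the stomach to genes whose domains held a peak with and without it. Of 708 tested domain genes, 106 (15.0%) rose and 15 (2.12%) fell, against 4.84% and 0.808% of all genes tested and 4.14% and 0.578% of other genes in 4-list regions. Their median log2 fold change was 0.21, while that of all genes was near 0. Developmental transcription factors that were silent in the control stomach, among them *Hoxa13*, *Hoxa11*, *Pax6* and *Alx1*, rose, and anterior *Hox* genes such as *Hoxa4* and *Hoxa5* fell. Domains drawn from the control lists alone, a setting added after the data were seen, gave 54 higher genes. These were 13% of those tested, against the same 4.84% of all genes. The part of KO peak width in these shares was not tested. The 106 became 52 without control stomach replicate 2, 56 without control stomach replicate 1 and 55 without KO stomach replicate 2, while the share of all genes called fell too, to between 1.68% and 1.95%. With 1 factor from spike-ins removed, 47 rose and 22 fell.

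Posterior *Hox* genes appeared in the stomach from no count in either control. *Hoxa13* reached 20.1 and 29.6 CPM in KO stomach, at least 621-fold above 3 counts over both controls (adjusted p = 0.000278). *Hoxa11* reached 9.66 and 13.1 CPM, at least 286-fold (adjusted p = 0.00026), beside 13.3 and 12.9 CPM in control intestine. *Hoxc11* (4.21 and 5.65 CPM, at least 124-fold) and the noncoding *Pantr1* (4.35 and 3.87, at least 103-fold) were also among the genes with the largest rise. *Hoxd12* (1.37 and 1.92 CPM), *Hoxd11* (1.23 and 1.29) and *Hottip* (0.456 and 0.74), an RNA transcribed next to *Hoxa13*, were lower but also rose from no count. In the list of *Hox* genes, 11 of 39 start in a domain, and of these 6 rose and 4 fell. Over all 39, in domains or not, 19 rose and 6 fell.

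Regulators known from other tissues rose as well. *Pax6*, the master regulator of the eye, had 1 count in the control stomach libraries and 683 in the KO, at 8.53 and 10.0 CPM, a ratio of 697 with a 95% exact counting interval of 125 to 27582. *Alx1*, a homeobox gene of the face, went from 0 and 0.051 to 4.86 and 5.40 CPM (ratio 193, interval 53.0 to 1599). *Tbr1*, a cortical neuron factor, went from 0.058 and 0.153 to 4.53 and 5.60 CPM (log2 change 5.51, adjusted p = 0.000723). From a list of 58 developmental regulators known as PRC2 targets in many tissues, 20 start in a domain, 15 were tested, and 10 rose and 0 fell, with a median log2 fold change of 3.15. Over the whole list, in domains or not, 35 of 47 tested genes rose. That list was drawn up with results of these libraries known, so its direction is not independent evidence. *Pax7*, *Otx2*, *Neurog2*, *Nkx2-1* and *Pdx1* were the 5 not tested, all at or under 0.302 CPM in every embryonic library. Among those tested and not called were *Pax8*, *Dlx2*, *Irx5* and *Gata3*.

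Of the 14 gut mesenchyme factors in domains 4 rose, 0 fell and 10 were not called, with a median log2 change of -0.10. Over the whole list of 32, in domains or not, 8 rose and 0 fell. *Gata4* went from 14.5 and 15.5 to 87.2 and 93.8 CPM (log2 change 2.59 ± 0.30, adjusted p = 0.00303) and *Prrx1* from 22.6 and 33.1 to 191.6 and 181 (2.74 ± 0.23, adjusted p = 0.000928). *Hoxb9* went from 4.41 and 3.31 to 22.3 and 27.2 CPM (2.68 ± 0.20, adjusted p = 0.000594). *Gata6*, a relative of *Gata4*, rose by 1.54 on the log2 scale (adjusted p = 0.0116) and *Hand1* by 2.89 (adjusted p = 0.0316). By contrast *Barx1* was 626.6 and 557.3 CPM in controls and 378.9 and 310.3 in the KO, which missed the threshold (log2 difference -0.78, adjusted p = 0.141).

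Fewer genes fell, and 4 *Hox* genes were among them. *Hoxa4* went from 31.0 and 31.8 to 10.3 and 9.57 CPM (log2 change -1.66 ± 0.14, adjusted p = 0.000926). *Hoxa5*, *Hoxa2* and *Hoxb7* fell by 1.32 (adjusted p = 0.00236), 1.46 (adjusted p = 0.00138) and 1.18 (adjusted p = 0.00799), with *Hoxaas2* in the *Hoxa2* domain at -1.79 (adjusted p = 0.00495). *Fst*, which encodes the activin inhibitor follistatin, went from 258.6 and 294.1 to 94.1 and 70.6 CPM (-1.75 ± 0.31, adjusted p = 0.0168), and the neuronal growth protein gene *Gap43* from 13.3 and 13.7 to 4.8 and 4.39 (-1.55 ± 0.15, adjusted p = 0.00141). *Gm16140* fell by 2.16 (adjusted p = 0.0398) at under 2 CPM. With 1 spike-in factor removed the change was -0.34 for *Gm16140* (adjusted p = 0.821), -1.09 for *Fst* (adjusted p = 0.199) and -0.74 for *Hoxb7* (adjusted p = 0.0966), none of them called, and each of the 3 also lost its call in 3 of the 4 fits that left out 1 library. Enteric neural crest markers summed to 533 and 454 CPM in control stomach and 312 and 310 in the KO, mostly *Gfra1*, itself a domain gene, with 0 of 10 called. Their part in the fall of *Gap43* was not tested. The *Hoxa4* domain was 2144 bp covered in control stomach and 3551 bp in the KO, so the condition with less *Hoxa4* RNA had the longer cover. Scaled to spike-in totals, which moved the median of all genes by 2.39, 665 domain genes were called higher and 0 lower, with 95.1% of all genes higher, and relative to that median none of the called genes changed sign.

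**Figure D4:**
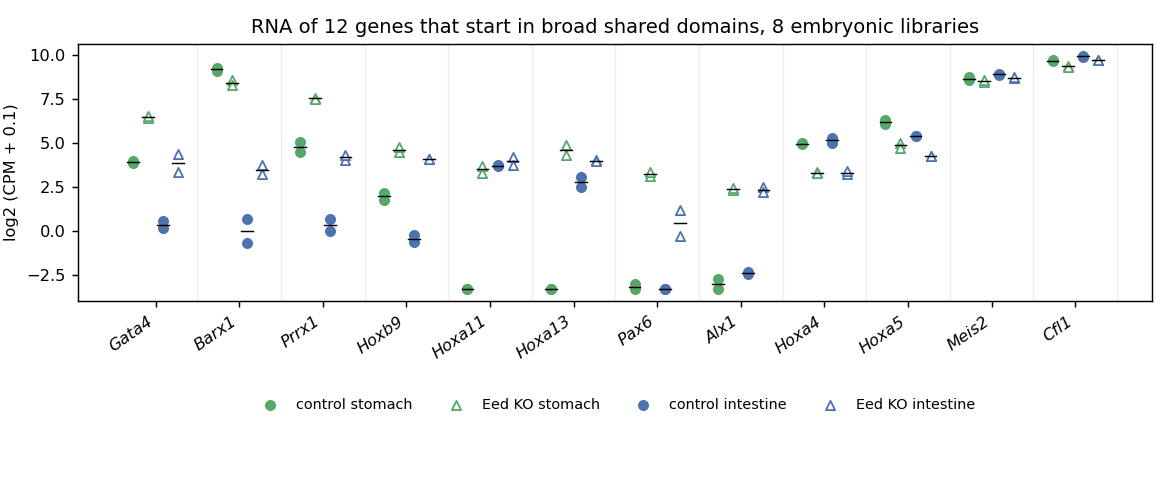
RNA of 12 genes that start in broad domains, as log2 (CPM + 0.1), in each of the 8 embryonic libraries; filled circles are controls, open triangles *Eed* KO, green stomach and blue intestine, and short lines are group means. *Hoxa11* and *Hoxa13* lie at the bottom in control stomach only, *Hoxa4* and *Hoxa5* are lower in both KO groups, and *Meis2* and *Cfl1* lie close together in all groups.

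In each class of control level the share of genes that rose was set beside that of all genes in the class. Of domain genes under 1 CPM in control stomach 60 of 149 (40.3%) rose, of those at 1 to 10 CPM 28 of 145 (19.3%), and of those at 10 CPM or more 18 of 414 (4.35%). For all genes tested the shares in the same classes were 13.8%, 8.45% and 0.741%. A low gene that passed the filter only because it was high in another group had to differ. For that reason the classes are not compared with each other, and the shares under 1 CPM are not read as a result. By CpG, 97 of 615 genes (15.8%) in domains with at least 1000 CpG-dense bases rose and 9 of 93 (9.68%) in the others. By width, 9.34% rose in domains under 3500 bp, 20.0% from 3500 to under 4000 bp, 23.4% from 4000 to under 5000 bp and 16.2% of 37 genes at 5000 bp or more.

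**Figure D5:**
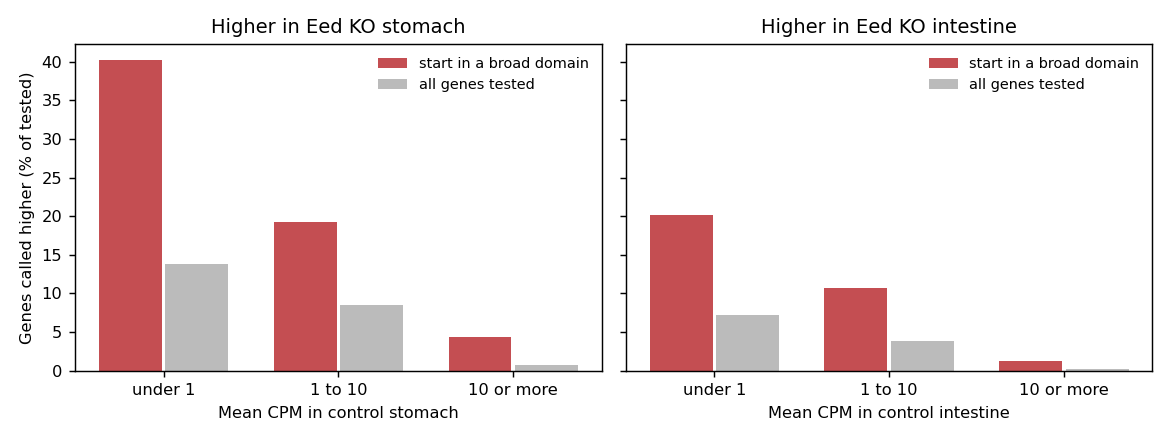
Share of tested genes called higher in the *Eed* KO stomach (left) and intestine (right) by their mean CPM in the control of that organ, for domain genes (red) and all genes tested (grey). In the stomach the shares are 19.3% against 8.45% at 1 to 10 CPM and 4.35% against 0.741% at 10 CPM or more. Genes under 1 CPM that passed the count filter only through another group had to differ, so that class is not read as a result.

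In the intestine, 53 of 708 domain genes (7.49%) rose with the loss of *Eed* and 4 (0.565%) fell, against 2.38% and 0.228% of all genes and 2.08% and 0.117% of other genes in 4-list regions. Their median log2 fold change was 0.17. *Alx1*, *Tbr1*, *Hoxb9*, *Dlx5* and *Prrx1* led the rise, and the stomach regulators *Barx1* and *Gata4* rose too. In both organs 44 domain genes (6.21%) were called higher and 3 (0.424%) lower, against 1.83% and 0.154% of all genes. The organs were sequenced as separate libraries, but those of the same replicate number deviated together, with a correlation of 0.748 in the KO, and the comparison of control organs shares its libraries with both. The 53 became 11 without control intestine replicate 1, 13 without control intestine replicate 2 and 28 without KO intestine replicate 2, while the share of all genes called fell to 0.358%, 0.51% and 1.04%. Scaled to spike-in totals, 613 domain genes were higher and 0 lower, with 84.3% of all genes higher, and with 1 spike-in factor removed 30 were higher.

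*Barx1* went from 0.534 and 1.48 to 9.47 and 13.2 CPM in the intestine (log2 change 3.53 ± 0.37, adjusted p = 0.00469), far under its 557.3 to 626.6 CPM in control stomach. *Gata4* went from 1.01 and 1.38 to 10.2 and 20.5 CPM (3.69 ± 0.36, adjusted p = 0.00341) and *Prrx1* from 0.899 and 1.51 to 16.6 and 19.8 (3.93 ± 0.28, adjusted p = 0.00103). *Hoxb9* went from 0.759 and 0.538 to 17.0 and 17.2 CPM (4.70 ± 0.24, adjusted p = 0.00047). *Alx1* rose from 0.0843 and 0.101 to 5.51 and 4.48 CPM (5.71 ± 0.43, adjusted p = 0.00138) and *Tbr1* from 0.0843 and 0.0337 to 1.98 and 2.65 (5.17, adjusted p = 0.00324). For these genes no KO library overlapped a control library.

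*Dlx5*, a homeobox gene of the face and limbs, rose by 4.53 (adjusted p = 0.0119), and *Pax6* had no count in control intestine and 0.712 and 2.23 CPM in the KO, at least 31.9-fold more (adjusted p = 0.0261). *Sox9* rose by 2.07 (adjusted p = 0.00535) and the Wnt effector *Lef1* by 2.76 (adjusted p = 0.0165). Of 15 tested PRC2 targets in domains, 6 rose and 0 fell, with a median log2 fold change of 3.91. Over the whole list, 23 of 47 tested genes rose and 0 fell. *Hoxa11* was 13.3 and 12.9 CPM in controls and 18.4 and 13.6 in the KO (0.29, adjusted p = 0.689), and *Hoxa13* was 5.51 and 8.21 and then 16.3 and 15.6 (1.22, adjusted p = 0.0651). The 4 genes that fell were *Hoxa4* (39.3 and 32.6 to 9.21 and 10.7 CPM, -1.85 ± 0.14, adjusted p = 0.00135), *Hoxa5* (-1.13, adjusted p = 0.0092), *Hoxaas2* (-1.34, adjusted p = 0.0349) and *Nptx1* (29.6 and 33.2 to 13.4 and 10.2 CPM, -1.41 ± 0.19, adjusted p = 0.0106). *Nptx1*, a neuronal pentraxin gene, rose in the stomach from 3.54 and 2.68 to 6.52 and 6.12 CPM (1.03 ± 0.20, adjusted p = 0.0225). Calls for *Nptx1* in the stomach and *Hoxaas2* in the intestine were lost in all 4 fits that left out 1 library.

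By control level, 32 of 159 domain genes (20.1%) under 1 CPM in control intestine rose, 16 of 149 (10.7%) at 1 to 10 CPM and 5 of 400 (1.25%) at 10 CPM or more, against 7.22%, 3.88% and 0.219% of all genes. Here too the shares under 1 CPM depend on the count filter and are not read as a result. The KO list covered more of the domain for 36 of 53 higher genes (67.9%) and for 69.3% of genes not called in the intestine, and for 81 of 106 (76.4%) and 429 of 587 (73.1%) in the stomach. Endothelial markers moved with the KO, at 17 to 23 CPM summed over 10 genes in controls and 35 to 60 CPM in KO libraries, with 6 of 10 higher in each organ, and their part in the results was not tested.

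The effect of *Eed* loss differed between the organs for 21 domain genes at an adjusted p under 0.2, the limit of the study for this contrast. It was more positive in the stomach for 14 (1.98%) and in the intestine for 7 (0.989%), where 0.271% and 0.191% of all genes were called. Of the 11 *Hox* genes in domains, 5 were more positive in the stomach and 1, *Hoxb9*, in the intestine. Among all 39 *Hox* genes tested, 14 were more positive in the stomach and 2 in the intestine. *Barx1* was more positive in the intestine, with a log2 difference of -4.31 (adjusted p = 0.031), as were *Sox9* (-1.74, adjusted p = 0.108) and *Nr2f1* (-1.27, adjusted p = 0.0733). With 1 spike-in factor removed the counts were 20 and 16, and with a replicate block they were 25 and 14. Without control stomach replicate 2 the 14 became 8, without KO stomach replicate 2 they became 9 and the 7 became 3, and without control intestine replicate 1 or 2 the 7 became 2 and 3.

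Of the signalling lists, 12 of 35 Wnt pathway genes, 3 of 14 hedgehog response genes and 4 of 28 BMP and TGF-beta genes start in domains. Of the 12 Wnt genes, 2 rose in the stomach, the ligands *Wnt11* (1.41, adjusted p = 0.00852) and *Wnt6* (1.41, adjusted p = 0.0465), and 2 in the intestine, *Wnt6* (2.14, adjusted p = 0.0328) and *Lef1*. *Sfrp1*, *Wnt5a*, *Fzd2* and *Lrp5*, the most abundant of them, were not called in either organ. Of all 35 Wnt genes tested, 3 rose and 1 fell in the stomach, and 3 rose and 0 fell in the intestine. None of the 3 hedgehog response genes (*Gli1*, *Gli2*, *Foxl1*) and none of the 4 BMP and TGF-beta genes (*Bmp2*, *Bmp4*, *Smad6*, *Tgfb1*) was called in any embryonic comparison. Of 8 immediate early genes, *Egr2* (2.04, adjusted p = 0.00842) and *Klf4* (1.41, adjusted p = 0.00234) rose in the stomach and *Klf4* in the intestine (1.22, adjusted p = 0.00954). *Jun*, *Zfp36l1*, *Cyr61* and *Ier2*, the most abundant 4, were not called. Among 6 cell cycle genes *Ccnd1*, which encodes cyclin D1, rose in the stomach from 89.2 and 114.3 to 201.6 and 207.7 CPM (1.01, adjusted p = 0.0369) and in the intestine from 90.6 and 56.6 to 213.8 and 260.9 (1.69, adjusted p = 0.0118). In the stomach that call was lost in all 4 fits that left out 1 library and with 1 spike-in factor removed (0.68, adjusted p = 0.285). *Ccnd2*, *E2f3* and *Myc* were not called.

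Many domain genes kept their level within the threshold. *Cfl1* and *Pfn1*, which bind actin, and *Ywhaz* were the housekeeping genes in domains, and none was called, with *Cfl1* at 653 to 1006 CPM over the 8 libraries. The imprinted RNA *H19* was 4782 to 5812 CPM and *Malat1* 109 to 237 CPM, and neither was called. *Meis1* and *Meis2*, cofactors of Hox proteins, were 169 to 497 CPM and not called. Of the extracellular matrix list only *Col3a1* and *Vcan* start in domains, and neither was called in the embryo, nor were the chromatin regulators *Kmt2a*, *Brd2* and *Chd7*. The 4 histone genes in domains (*Hist1h1a*, *Hist1h3a*, *Hist1h4a*, *Hist2h2aa1*) were not called or not tested, in poly(A) libraries that hold little histone RNA. None of 36 ribosomal protein genes and 14 smooth muscle genes listed starts in a domain.

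Some of the widest domains lay over genes without RNA. *Prdm12*, *A430072P03Rik* and *Gm13425* had 0 counts in every embryonic library, and *Gfi1* was 0.029 to 0.371 CPM, with no call. *Tnrc18* was 51.1 to 152 CPM and *Ntf3* 9.60 to 18 CPM, not called. In a domain of 6462 bp with a core of 301 bp, *Pdx1*, a regulator of pancreas and duodenum, was at most 0.058 CPM in any embryonic library.

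In the adult intestine the domains of the embryo were only a label, since no adult ATAC-seq was used. Of 514 tested domain genes 57 (11.1%) were higher in the libraries labelled KO and 87 (16.9%) lower, against 12.3% and 7.23% of all 15039 genes tested and 9.79% and 6.73% of other genes in embryonic 4-list regions. Scaled to spike-in totals, 32 were higher and 94 lower. The median log2 fold change was -0.15. Among domain genes *Tcf21*, *Bmp4* and *Col3a1* fell, and *Fcgr3* and *Slfn2* rose. Leukocyte markers summed to 650 and 835 CPM in controls and 16303 and 14683 CPM in the libraries labelled KO, with all 9 tested of 10 higher. Gut mesenchyme markers summed to 11861 and 12385 CPM and to 5110 and 3570 CPM, with 7 of 11 tested lower. Pancreas markers summed to 20.6 and 11.3 CPM in controls and to 13.3 and 691 CPM in the libraries labelled KO. In the library at 691 CPM, 1 of the 8 genes reached 1 CPM. The part of these shifts in the results below was not tested.

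*Fcgr3*, an Fc receptor gene of myeloid cells, went from 55 and 92.7 to 1928 and 1746 CPM (log2 change 4.64 ± 0.31, adjusted p = 0.000167), and the leukocyte gene *Slfn2* from 10.8 and 12.3 to 303.7 and 412.8 (4.95 ± 0.26, adjusted p = 0.000124). *Rab20* rose by 3.76 ± 0.31 (adjusted p = 0.000404). *Epha8* had 1 count in controls and 80 in the libraries labelled KO (ratio 69.2, 95% exact counting interval 12.1 to 2766), and *Dpys* had a ratio of 44.5 (12 to 373). Each had control and KO values that did not overlap.

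The largest falls were those of *Tmem132e* (-3.91 ± 0.74, adjusted p = 0.0103), *Edil3* (-3.07 ± 0.35, adjusted p = 0.00139), *Tril* (-2.86 ± 0.43, adjusted p = 0.00414), the growth factor gene *Fgf9* (-2.82, adjusted p = 0.00772) and *Col27a1* (-2.63, adjusted p = 0.0133). The mesenchymal factor *Tcf21* went from 380 and 409 to 101 and 67.0 CPM (-2.23, adjusted p = 0.00126) and the ligand gene *Bmp4* from 636 and 660 to 214 and 115 CPM (-1.98, adjusted p = 0.00485). *Col3a1* and *Vcan*, both matrix genes in domains, fell by 1.60 (adjusted p = 0.00504) and 1.91 (adjusted p = 0.0267). Of all 25 matrix genes tested, in domains or not, 19 fell and 1 rose. In the Wnt list 5 of 9 tested domain genes fell, *Fzd2* by 2.25 (adjusted p = 0.00577), *Dkk2* by 1.81, *Wnt5a* by 1.51, *Sfrp1* by 1.34 and *Rspo3* by 1.07, and *Wnt11* rose. Over the whole Wnt list, in domains or not, 11 of 29 tested genes fell and 1 rose. *Cfl1* and *Pfn1* rose by 1.21 (adjusted p = 0.00421) and 1.13 (adjusted p = 0.00813). No *Hox* gene in a domain was called among 5 tested.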

How the data were processed

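The authors aligned ATAC-seq reads with BWA 0.7.8, pooled replicates and called broad peaks with MACS2 2.1.2 on GRCm38/mm10. Each deposited peak has a fold enrichment, a ratio to local background, and a -log10 q. The study's methods name a q limit of 0.01 and autosomal reads, yet the deposited lists hold 13.5% to 20.0% of peaks above that limit, down to a -log10 q of 1.00, and peaks on chromosome X. No read depth is given for the lists. RNA reads were trimmed with Trimmomatic 0.32, aligned with STAR 2.5.1b and counted with featureCounts, whose stated versions conflict. The gene counts were deposited without normalization, with 99 spike-in transcripts, which were left out of library sizes and tests. Embryonic libraries were poly(A) and directional, and adult libraries came from a low-input kit without strand.

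Peaks were merged with bedtools 2.31.1 and sequence composition was read with pysam 0.24.0 from RefSeq GRCm38.p6. A gene start is the most upstream exon base in the coordinates of the adult count files (GENCODE vM4), and 4 genes without a single place were left out. edgeR 4.0.16 (R 4.3.3, limma 3.58.1) tested the counts by quasi-likelihood after TMM scaling and filterByExpr, with 4 group means over the 8 embryonic libraries and 2 over the 4 adult ones, and Benjamini-Hochberg adjustment over all genes tested. Of the 939 domain genes, 231 did not pass the embryonic filter. The biological coefficient of variation was 15.8% in the embryonic and 29.1% in the adult fit. CPM uses counts on genes, without TMM. Standard errors were derived from each F statistic. With a group at 0, a fold is a bound against 3 counts over its 2 libraries, and with 1 to 3 counts it is a ratio with an exact 95% interval. Such intervals and floors cover counting error only. An exact permutation test of 2 against 2 libraries cannot go below p = 0.333, so none is given. The steps were tested on simulated data, with the same spread set for the embryonic and the adult fit. The adult fit was therefore not tested at its own larger spread.

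Alternatives were DESeq2 1.42.0, its size factors, no count filter, spike-in totals, 1 spike-in factor, a replicate block, only the compared groups, each library left out, other widths, peak limits and gene assignments. Domains from the control lists alone and starts of any transcript were added after seeing the data. The members and lists were chosen with earlier results of these data known. Named are the 8 widest domains and their genes, the 5 domains with the highest and the 5 with the most uneven fold enrichment, 3 regions on each side of 3000 bp, up to 5 called genes per direction and comparison whose groups did not overlap and averaged 1 CPM or more, and up to 4 of the most abundant genes per list. *Hand1*, *Gata6*, *Sox9*, *Nr2f1*, *Hoxa2*, *Lef1*, *Wnt6*, *Wnt11*, *Dkk2*, *Rspo3*, *Egr2*, *Klf4*, *Ntf3*, *Pdx1*, the members of the PRC2 list not called or not tested, and the domains with the largest cores and on chromosome 1 were chosen after their values were seen. Some genes and a sequence that these rules name are not reported here.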

Additional observations from a re-analysis of the deposited data

Results flagged for a closer look

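For 11 of the named genes the effect of *Eed* loss differed between stomach and intestine in the interaction contrast of the edgeR quasi-likelihood test, with an adjusted p under 0.2 (stomach minus intestine, log2). The effect was more positive in the stomach for *Hoxa13* (11.57, adjusted p = 0.00989), *Hoxa11* (11.38, adjusted p = 0.00814), *Hoxa11os* (9.04, adjusted p = 0.0531), *Hoxc11* (8.23, adjusted p = 0.073), *Hoxd11* (8.19, adjusted p = 0.0531), *Hoxd12* (8.07, adjusted p = 0.046), *Pantr1* (7.75, adjusted p = 0.0531) and *Nptx1* (2.44, adjusted p = 0.0339). All of these but *Nptx1* had no count in either control stomach library, so their fitted sizes depend on the prior count and are no bound. *Nptx1* moved in opposite directions, up in all KO stomach libraries and down in all KO intestine libraries. The effect was more positive in the intestine for *Barx1* (-4.31, adjusted p = 0.031), *Hoxb9* (-2.02, adjusted p = 0.0734) and *Gap43* (-1.85, adjusted p = 0.037). *Barx1* was high in control stomach and near 1 CPM in control intestine. *Gap43* fell in the stomach, and in the intestine it was 3.54 and 3.87 CPM in controls and 4.72 and 4.34 in the KO.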

How the results depend on the processing

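With 2 libraries per group, and peaks from pooled libraries whose depth is not given, the counts of domains and of called genes moved with several choices, while none of the values recomputed changed direction relative to the median of all genes. Counts are given as higher then lower. The width rule moved the number of domains most, to 9872 at 2000 bp and 78 at 5000 bp, and it was 1124 with peaks at a -log10 q of at least 5, 242 where 3000 bases had to be covered in every list, 245 with a single peak of 3000 bp in every list and 1020 from the control lists alone. Genes numbered 1788 by overlap with the gene body, 57 at 5000 bp, 239 by common cover and 536 from the control lists. Median CPM of domain genes over the control libraries was 4.26, 3.03 with starts within 1000 bp, 17.7 for genes that passed the count filter and 1.57 at 5000 bp. The cause was not tested for these or for the counts below, apart from the smaller gene sets of the stricter rules.

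At 5000 bp the calls were 4 and 7 between control organs, 6 and 2 in the KO stomach, 2 and 0 in the KO intestine, 1 and 1 for the difference of effects and 4 and 6 in the adult. With 3000 bases covered in every list they were 14 and 11, 25 and 4, 14 and 1, 7 and 2, and 19 and 25 in the same order. The control lists alone gave 28 genes higher in the stomach between organs, 54 and 8, 27 and 2, 9 and 3, and 34 higher in the adult. Spike-in totals, whose scaling moved the median log2 change of all genes by 2.39 in the stomach, 1.85 in the intestine, 0.30 between organs and -0.42 in the adult, gave 14 and 15, 665 and 0, 613 and 0, 8 and 0, and 32 higher. Removing 1 spike-in factor gave 47 higher in the KO stomach, 30 higher in the KO intestine and 16 lower for the difference. DESeq2 gave 80 higher in the KO intestine and 28 and 19 for the difference, no count filter gave 98, and 28 and 20, and only the compared groups gave 31 in the KO intestine.

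Leaving out 1 library, where the lone library left is assumed to vary like the others, gave ranges of 25 to 30 and 32 to 46 between organs, 52 to 83 and 10 to 16 in the KO stomach, 11 to 51 and 1 to 3 in the KO intestine, 8 to 16 and 2 to 10 for the difference, and 44 to 61 and 63 to 92 in the adult. The lowest counts in the KO intestine came without control intestine replicate 1 (11) and 2 (13).

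Replicate numbers are shared between groups, and libraries of the same number deviated together in the control organs (correlation 0.370) and the KO organs (0.748), less so between genotypes (0.138 to 0.282) and not in the adult (-0.0823). The labels tie no number to an animal, litter or day. The methods took both organs from each animal, and whether libraries of the same number share one is not given in the sources used here. A replicate block gave 40 and 77, 131 and 18, 76 and 4, 25 and 14, and 54 and 84, and a replicate block within genotype gave 97 higher in the KO intestine and 35 and 25 for the difference. Among single named genes under all alternatives, 1073 values kept their call and 110 lost it with the same direction.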
